A study of Mus musculus with 6 samples.

Results

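The genes described here encode the proteins that dock, prime and fuse secretory vesicles: synaptotagmins, syntaxins, vesicle-associated membrane proteins (VAMPs), the SNAP-25 family, synapsins, SV2 proteins, Rab3 GTPases, complexins and syntaxin-binding proteins. They were chosen by symbol, not by a measured value, though with earlier results of these data known. Of the 23358 gene rows of the deposited table, 62 matched. RNA was sequenced from N1E115 cells, a mouse neuroblastoma line with features of sympathetic neurons that the labels call NOS1+, after 3 days of culture in 4% oxygen or in 20% oxygen, with 3 libraries at each level numbered 1 to 3. All libraries came from this 1 line. Whether each was made from its own culture is not stated, and p-values therefore reflect only how far these libraries vary, which may be technical.

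Vesicle fusion runs on SNARE proteins. A VAMP on the vesicle zippers together with a syntaxin and a SNAP-25 protein on the target membrane, Munc18 proteins hold and template the syntaxin, complexins clamp and then assist the assembled complex, and synaptotagmins sense calcium. Synapsins tether vesicles in a reserve pool, SV2 proteins are transporter-like glycoproteins of the vesicle membrane, and Rab3 GTPases bring vesicles to release sites. Sympathetic neurons and chromaffin cells use this machinery to release catecholamines from vesicles and dense-core granules.

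The libraries held 124259152 to 163695286 counts, and the members took 0.323%, 0.274% and 0.322% of them in the 4% oxygen libraries, against 0.243%, 0.243% and 0.246% in the 20% oxygen libraries. Replicate 1 at 20% oxygen stood apart, at -75.0 on the first principal component (37.6% of the variance), where the other 5 libraries ran from -27.5 to 48.9. Replicate 1 at 4% oxygen was the one at -27.5, and at both oxygen levels the order was replicate 1, then 3, then 2. Leaving out replicate 1 at 20% oxygen turned the sign of 8 of the 55 member estimates. Of 15 sympathetic neuroblast markers 13 averaged over 1 CPM (a count per 1000000 counts of the TMM-scaled library), with Chgb and Th abundant and Nefl and Nefm at or under 0.275 CPM in each library. Their summed level was 6479 to 7803 CPM at 4% oxygen and 4695 to 4820 CPM at 20% oxygen, so these markers too were higher at 4% oxygen, and their part in the member levels below was not tested. Markers of mesenchymal cells summed to 8.24 to 17.8 CPM at 4% oxygen and 5.2 to 36.7 CPM at 20% oxygen, those of glia to at most 8.81 CPM, those of endothelium to at most 9.66 CPM and those of immune cells to at most 2.26 CPM, while Cd3e and Lum were at 0 in each library. The glucose transporter gene Slc2a1, a target of the hypoxia-inducible factors, had 212, 193 and 146 CPM in 4% oxygen, against 67.4, 39.7 and 40.7 CPM in 20% oxygen. Of the 6 hypoxia-response genes listed, Vegfa alone did not separate the levels, with 279, 282 and 275 CPM in 4% oxygen, against 489, 118 and 160 CPM in 20% oxygen. In bulk RNA, a change in the number of cells of a kind and a change in RNA per cell cannot be told apart.

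No member passed the test of 4% against 20% oxygen. Tested with edgeR (quasi-likelihood, Benjamini-Hochberg adjusted over the 14979 genes tested), 0 genes of the whole table were called in either direction (0%). DESeq2 called 53 genes higher (0.354%) and 6 lower (0.0401%), and edgeR blocked on replicate number called 11 higher (0.0734%) and 0 lower. Neither called a member. At an unadjusted edgeR p under 0.05, 5 of the 55 members tested were higher and 1 lower at 4% oxygen, which is 9.09% of them higher, where 3.01% of all genes tested were higher and 1.42% lower. The 5 were Syt17, Syn2, Syt1, Sv2c and Stx2, and the 1 was Syt6. DESeq2 gave 5 higher and 2 lower, against 3.16% and 2.14% of all genes. In edgeR fits with a library left out, the 5 higher became 3 without 4% oxygen replicate 3 (1.49% of all genes) and 7 without 20% oxygen replicate 1 (5.79%), and the 1 lower became 0 without 20% oxygen replicate 2 (1.95%). The median log2 fold change of the members tested was 0.20, against -0.03 over all genes tested, and 36 of 55 estimates (65.5%) were above 0, against 47.3% of all genes tested. Without 20% oxygen replicate 2 the members' median was 0.10.

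**Figure D1:**
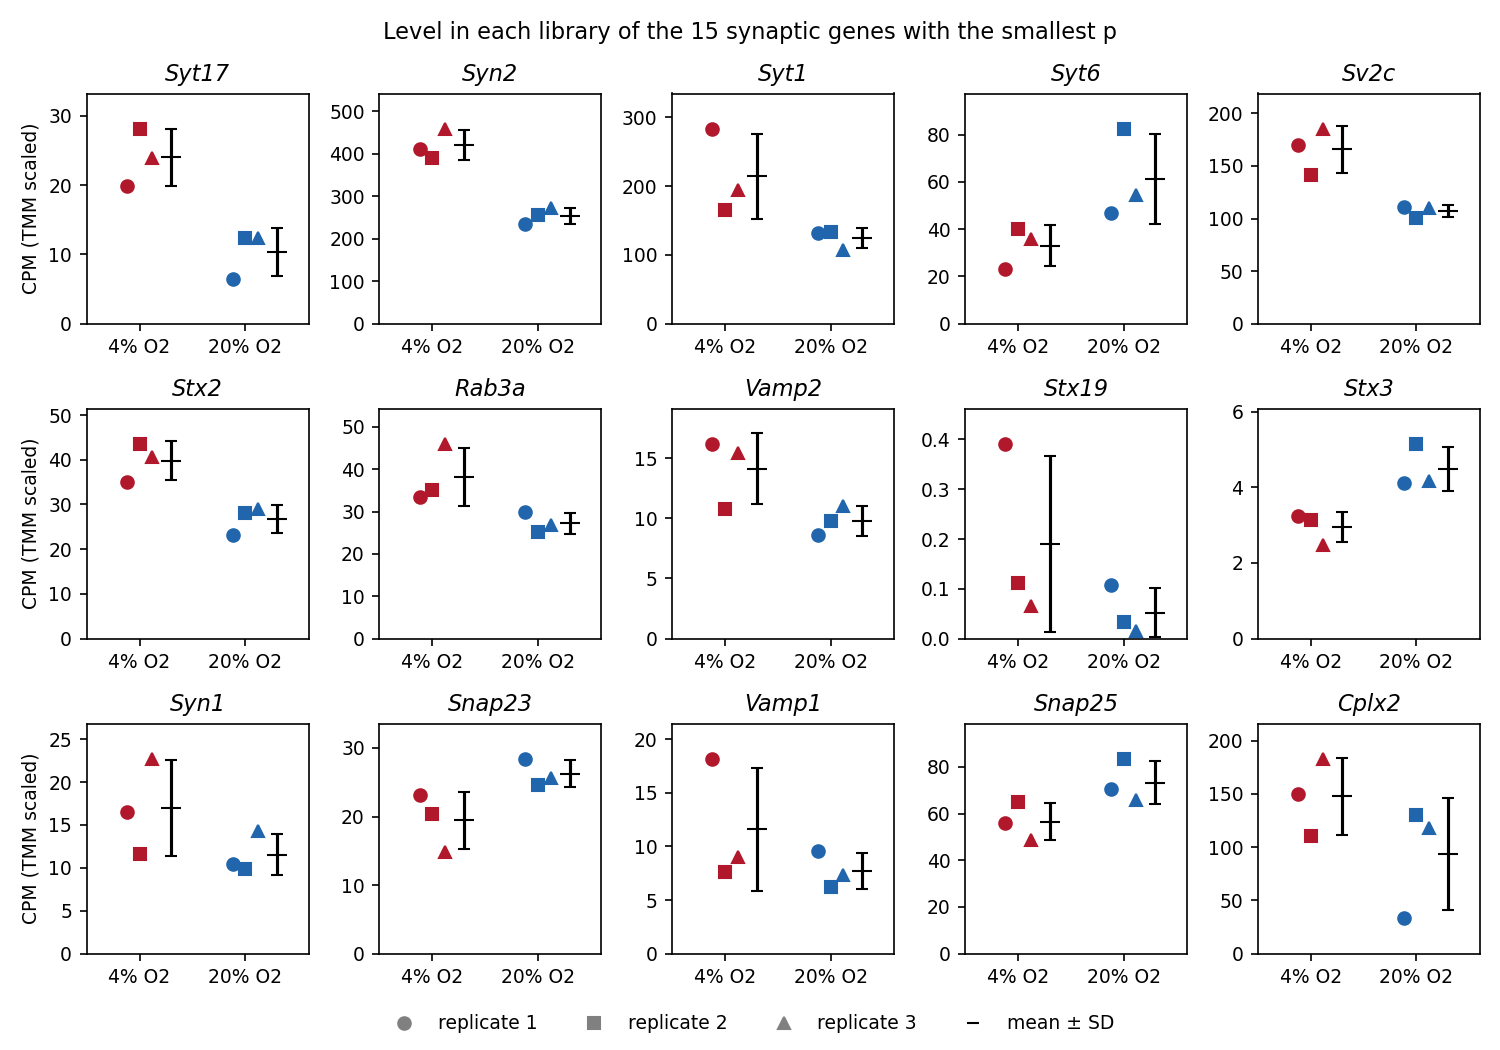
TMM-scaled CPM (y axis, linear from 0) of the 15 members with the smallest edgeR p, in the 3 libraries at 4% oxygen (red) and the 3 at 20% oxygen (blue); marker shapes give the replicate number and black bars the mean ± SD. The groups separate for Syt17, Syn2, Syt1, Sv2c, Stx2 and Rab3a, which were higher at 4% oxygen, and for Syt6, Stx3, Snap23 and Snap25, which were lower.

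Without any overlap between the oxygen levels, 8 members were higher at 4% oxygen (14.5% of those tested), against 6.33% of all genes tested, and 4 members were lower (7.27%), against 3.72%. The 8 were Syt17, Syn2, Syt1, Sv2c, Stx2, Rab3a, Syt11 and Rab3c. The 4 were Syt6, Stx3, Snap23 and Snap25. With 20% oxygen replicate 1 left out, which makes separation easier, 16 members were higher without overlap and 4 lower, against 13.9% and 11% of the genes tested in that fit.

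Synapsins coat vesicles and tie them to the cytoskeleton. Syn2 had 412, 389 and 459 CPM in 4% oxygen, against 234, 255 and 272 CPM in 20% oxygen. Every library at 4% oxygen was above every library at 20%, and the spread within each level was small beside the gap. Its log2 fold change was 0.73 (SE 0.21, edgeR unadjusted p = 0.00555, adjusted p = 0.732), and it lay between 0.66 and 0.78 with any 1 library left out. Syn2 lies at chromosome 6, 115134902 to 115282626 in mm10, and Timp4, encoded on the other strand inside it, shares 90 bases of exon with it. Timp4 had 3.81 to 6.59 CPM at 4% oxygen and 2.06 to 2.42 CPM at 20% oxygen.

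Syn1, the X-linked synapsin, had 16.5, 11.6 and 22.7 CPM in 4% oxygen, against 10.4, 9.88 and 14.2 CPM in 20% oxygen, with overlapping groups and a log2 fold change of 0.56 (SE 0.31). Syn3 averaged 9.03 ± 1.54 and 7.52 ± 2.68 CPM at 4% and 20% oxygen (SD, n = 3 each), with a log2 fold change of 0.26 that was -0.0069 without 20% oxygen replicate 1, and 14.1% of its exon bases are shared with Timp3 on the other strand. Per kilobase of the deposited gene length, Syn2 made up 92.6% ± 1.5 of the synapsin level at 4% oxygen and 91.5% ± 1.03 at 20% oxygen (SD, n = 3 each). The family's level was thus mostly that of Syn2, which was second of all members tested.

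Among the SV2 proteins, Sv2c was the abundant form. It had 170, 142 and 185 CPM in 4% oxygen, against 111, 101 and 110 CPM in 20% oxygen. The 20% libraries lay close together and all below the 4% libraries. The log2 fold change was 0.63 (SE 0.22, edgeR unadjusted p = 0.0172, adjusted p = 0.996). Without 4% oxygen replicate 3 it was 0.54, with an edgeR unadjusted p of 0.0896. The gene lies at chromosome 13, 95959443 to 96132577. Sv2a, the form found in most neurons, averaged 18.9 ± 4.13 and 16.1 ± 0.998 CPM at 4% and 20% oxygen (SD, n = 3 each). Sv2c made up 88.5%, 90.1% and 88.5% of the SV2 level per kilobase in the 4% libraries, against 87.0%, 84.3% and 86.5% in the 20% libraries, and Sv2b was nearly silent at 0.187 CPM or less.

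Calcium-binding synaptotagmins trigger fusion when calcium enters the cell. Syt1, the fast sensor of synapses and chromaffin granules, had 284, 165 and 195 CPM in 4% oxygen, against 131, 133 and 107 CPM in 20% oxygen. The groups did not overlap, and replicate 1 at 4% oxygen was well above the others. Its log2 fold change was 0.79 (SE 0.26, edgeR unadjusted p = 0.0109, adjusted p = 0.902), and 0.52 without that library, where the unadjusted p was 0.0671. Syt1 lies at chromosome 10, 108497650 to 109010975.

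Syt6, a relative of Syt1 known for a part in the sperm acrosome reaction, was the calcium-binding form that was lower at 4% oxygen. It had 23.2, 40.1 and 35.9 CPM in 4% oxygen, against 46.7, 82.6 and 54.4 CPM in 20% oxygen. All 3 libraries at 4% oxygen were below those at 20%, and replicate 2 was the highest at both levels. The log2 fold change was -0.89 (SE 0.30, edgeR unadjusted p = 0.0129, adjusted p = 0.963) at chromosome 3, 103575281 to 103635179, and 8.67% of its exon bases overlap Atg4a-ps on the other strand. Between them, Syt1 took 20.3% ± 3.43 of the summed synaptotagmin level per kilobase at 4% oxygen and 14.2% ± 3.00 at 20% oxygen, and Syt6 3.56% ± 1.27 and 7.75% ± 3.21 (SD, n = 3 each).

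Syt7, the slow high-affinity sensor, averaged 19.2 ± 5.09 and 17.3 ± 0.383 CPM at 4% and 20% oxygen (SD, n = 3 each), and the 95% interval of its log2 fold change ran from -0.45 to 0.75, with the estimate of 0.15 at -0.04 without 4% oxygen replicate 2. Syt5, found on dense-core granules, had 29.3, 17.5 and 22.3 CPM in 4% oxygen, against 18, 9.4 and 22.2 CPM in 20% oxygen. Syt2, Syt3 and Syt9 averaged under 8 CPM at both levels, and Syt10 was found only as 4 counts in 1 library.

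Synaptotagmins that do not bind calcium, or bind it weakly, included both the most abundant member and the one with the smallest p. Syt4, an activity-regulated form of dense-core vesicles, stood first of all members per kilobase at 69.7 CPM per kilobase over the 6 libraries. It had 328, 230 and 243 CPM in 4% oxygen, against 310, 178 and 341 CPM in 20% oxygen. These ranges overlapped fully, with a log2 fold change of -0.05 and a 95% interval from -0.67 to 0.57, and 14.5% of its exon bases overlap the antisense gene Gm26658.

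Syt17, a cytosolic relative also called B/K, had 19.9, 28.2 and 23.9 CPM in 4% oxygen, against 6.41, 12.4 and 12.4 CPM in 20% oxygen. The lowest library at 4% oxygen was above the highest at 20%, and replicate 1 was the lowest at both levels. The log2 fold change was 1.21 (SE 0.32, edgeR unadjusted p = 0.0027), or 0.95 without 20% oxygen replicate 1. Adjusted p was 0.542 with edgeR, 0.11 with the replicate block and 0.0751 with DESeq2, the smallest of any member in each of the 3 fits. The gene lies at chromosome 7, 118381856 to 118443552.

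Syt11, a form that restrains vesicle recycling, had 231, 239 and 240 CPM in 4% oxygen, against 171, 206 and 204 CPM in 20% oxygen. The 4% libraries were nearly equal and all above the 20% libraries, yet the log2 fold change was 0.29 (SE 0.21, edgeR unadjusted p = 0.205). Syt14 averaged 16.2 ± 1.71 and 16.7 ± 3.04 CPM at 4% and 20% oxygen (SD, n = 3 each). Syt12 stayed at or under 0.326 CPM.

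Promoter sequence is shown for the 4 members among the 5 with the smallest p that the RefSeq table (GRCm38.p6, the build called mm10) holds. Syt17, which had the smallest p, is absent from it. Each line gives the 250 bases before the start nearest to the deposited gene's 5′ end, on the gene's own strand, 5′ to 3′, with any ACGTG in capitals. ACGTG is one form of the core bound by hypoxia-inducible factors, and the other form, GCGTG, was not searched or marked. The motif was searched as ACGTG on both strands, so its reverse complement CACGT is marked too, and CACGTG counts as a pair of overlapping matches.
Syn2, chr6:115134652-115134901, plus strand: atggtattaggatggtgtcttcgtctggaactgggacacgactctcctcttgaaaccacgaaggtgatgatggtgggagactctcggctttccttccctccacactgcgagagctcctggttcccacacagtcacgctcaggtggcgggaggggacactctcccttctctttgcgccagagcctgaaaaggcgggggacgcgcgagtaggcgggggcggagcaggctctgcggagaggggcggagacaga
Sv2c, chr13:96132578-96132827, minus strand: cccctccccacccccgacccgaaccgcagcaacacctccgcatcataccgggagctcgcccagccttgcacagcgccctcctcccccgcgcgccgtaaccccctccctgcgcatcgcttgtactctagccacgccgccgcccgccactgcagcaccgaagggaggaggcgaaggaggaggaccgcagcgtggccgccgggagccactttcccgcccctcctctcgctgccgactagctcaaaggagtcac
Syt1, chr10:109010976-109011225, minus strand: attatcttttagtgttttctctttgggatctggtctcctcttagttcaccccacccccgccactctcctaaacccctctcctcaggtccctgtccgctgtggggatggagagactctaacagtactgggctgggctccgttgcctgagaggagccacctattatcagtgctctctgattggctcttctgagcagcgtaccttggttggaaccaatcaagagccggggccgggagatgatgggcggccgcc
Syt6, chr3:103575032-103575281, plus strand: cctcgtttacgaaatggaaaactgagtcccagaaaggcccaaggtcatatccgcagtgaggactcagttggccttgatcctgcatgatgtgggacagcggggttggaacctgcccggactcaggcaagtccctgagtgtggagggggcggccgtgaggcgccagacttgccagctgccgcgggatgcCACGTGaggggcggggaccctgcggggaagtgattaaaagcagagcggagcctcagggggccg
Syn2, Sv2c and Syt1, higher at 4% oxygen, had 0 matches to ACGTG in these windows, and Syt6, lower at 4% oxygen, had 2 overlapping matches. Of the 49 members found in the table, 8 (16.3%) had a match in any of their windows of this length, against 18.5% of the 27025 genes in the table. The Sv2c window was the richest of the 4 in G and C, at 70.8%, and Syt1 the poorest, at 56.4%, where the median over all windows in the table was 52.4%.

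**Figure D2:**
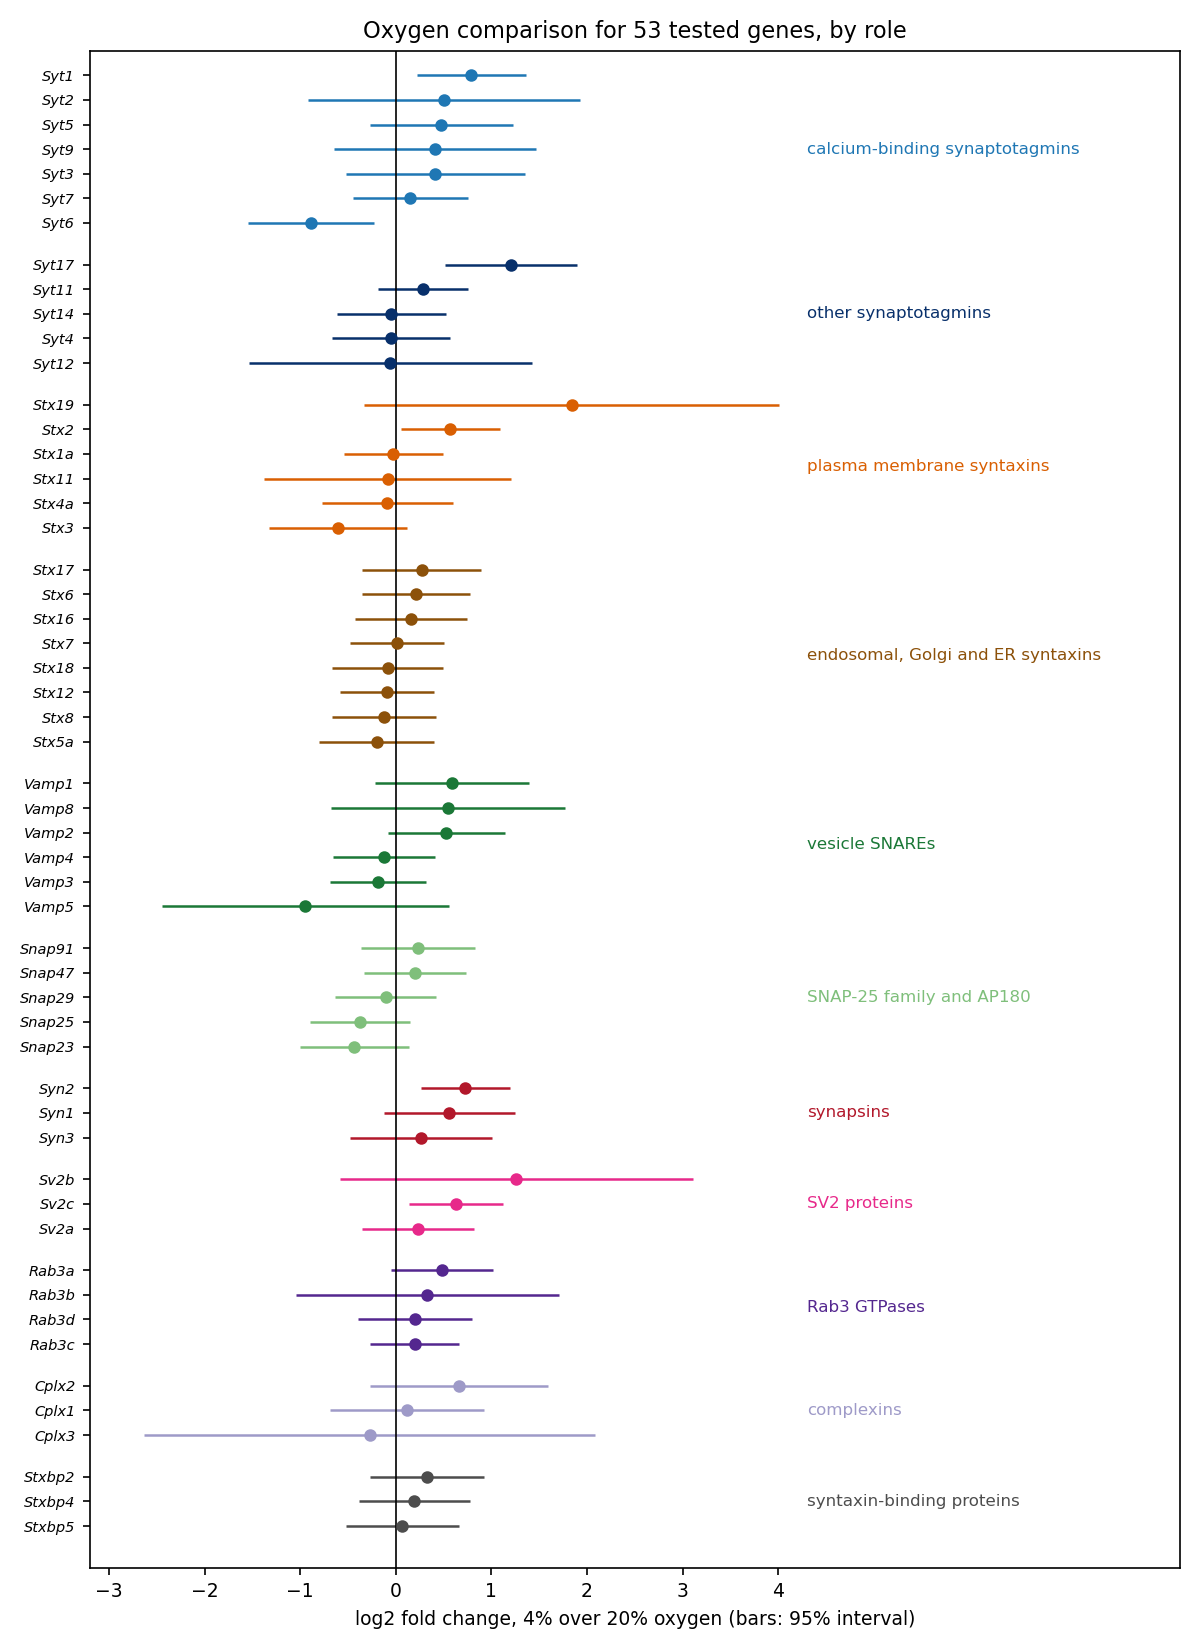
log2 fold change of 4% over 20% oxygen (x axis) for 53 of the 55 members tested, grouped by role; points are edgeR estimates and bars 95% intervals, not adjusted for the number of genes. The intervals of Syt1, Syt17, Stx2, Syn2 and Sv2c lie above 0, that of Syt6 lies below 0, and the syntaxins of internal membranes centre near 0.

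Plasma membrane syntaxins are the target-side SNAREs of secretion. Stx1a, the neuronal form with the highest level in this group, had 34.9, 47.6 and 42.8 CPM in 4% oxygen, against 43.8, 45.0 and 38.8 CPM in 20% oxygen, with a log2 fold change of -0.03 and a 95% interval from -0.55 to 0.49. The 20% libraries lay within the range of the 4% libraries.

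Stx2, also called epimorphin, had 35.0, 43.6 and 40.6 CPM in 4% oxygen, against 23.1, 28.1 and 28.9 CPM in 20% oxygen. The groups did not overlap, and the log2 fold change was 0.57 (SE 0.24, edgeR unadjusted p = 0.0342, adjusted p = 0.996). Leaving out 4% oxygen replicate 2 or 3, or 20% oxygen replicate 1 or 2, put its unadjusted p between 0.0638 and 0.118. Stx3, a syntaxin of apical membranes and sensory ribbon synapses, was low in level and lower at 4% oxygen, at 3.24, 3.12 and 2.49 CPM in 4% oxygen, against 4.13, 5.15 and 4.16 CPM in 20% oxygen, a log2 fold change of -0.60 (SE 0.33). Stx4a, the widely expressed form, averaged 7.10 ± 1.45 and 7.54 ± 1.62 CPM at 4% and 20% oxygen, and Stx11, known from immune cells, 3.24 ± 1.75 and 3.44 ± 2.56 CPM (SD, n = 3 each). The log2 fold change of Stx11 was -0.08, and 0.70 without 20% oxygen replicate 1. Stx19 had 10 to 54 counts per library at 4% oxygen and 2 to 14 at 20% oxygen, and its log2 fold change of 1.84 (SE 0.99) was 0.74 without 4% oxygen replicate 1.

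Syntaxins of endosomes, the Golgi and the endoplasmic reticulum serve traffic inside the cell. Stx12 and Stx7, both endosomal, led the whole syntaxin family per kilobase. Stx12 had 64.1, 63.6 and 57.3 CPM in 4% oxygen, against 60.4, 73.6 and 63.0 CPM in 20% oxygen, and Stx7 averaged 62.2 ± 4.12 and 61.7 ± 3.63 CPM (SD, n = 3 each). The 95% interval for Stx12 ran from -0.59 to 0.40 on the log2 scale. Stx6, Stx16 and Stx5a, of the Golgi and endosomes, averaged 47.4 ± 4.11, 44.2 ± 4.16 and 36.8 ± 3.88 CPM at 4% oxygen, and 40.9 ± 10.8, 39.6 ± 11.8 and 42.3 ± 13.7 CPM at 20% oxygen (SD, n = 3 each). Without 20% oxygen replicate 1, the highest library for all 3, the log2 fold change of Stx6 was 0.45 (0.21 with it), that of Stx16 0.43 (0.16 with it) and that of Stx5a 0.10 (-0.20 with it). Stx8, Stx17 and Stx18 stood between 8.81 and 34.8 CPM in each library. Over the 8 members tested in this group the median log2 fold change was -0.04, against -0.03 over all genes tested. Of the 8, 0 had an unadjusted p under 0.05, against 3.01% higher and 1.42% lower of all genes tested. Likewise 0 separated the oxygen levels, against 6.33% higher and 3.72% lower. For a group of 8, counts of 0 are near these shares.

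Vesicle SNAREs were dominated by Vamp3, also called cellubrevin, the broadly expressed form of recycling endosomes. Vamp3 had 93.6, 77 and 84.8 CPM in 4% oxygen, against 102, 84.0 and 105 CPM in 20% oxygen, which overlapped. Vamp2, the main synaptic form, had 16.2, 10.7 and 15.4 CPM in 4% oxygen, against 8.58, 9.75 and 11 CPM in 20% oxygen. Replicate 2 at 4% oxygen lay within the range of the 20% libraries, and the log2 fold change was 0.53 (SE 0.28, edgeR unadjusted p = 0.0848).

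Vamp1, the form of spinal cord and neuromuscular synapses, had 18.2, 7.59 and 8.96 CPM in 4% oxygen, against 9.55, 6.23 and 7.29 CPM in 20% oxygen, and its log2 fold change of 0.59 was 0.09 without 4% oxygen replicate 1. Per kilobase, Vamp3 was 65.1%, 69.5% and 68.8% of the VAMP level in the 4% libraries, against 73.9%, 72.1% and 73.4% in the 20% libraries. The share of Vamp2 was 11%, 9.49% and 12.2% at 4% oxygen, against 6.1%, 8.18% and 7.56% at 20% oxygen. Both sets of shares separated the levels, and, being parts of 1 total, they are not independent of each other. Vamp4, of the trans-Golgi network, averaged 20.9 ± 2.59 and 22.7 ± 1.57 CPM at 4% and 20% oxygen (SD, n = 3 each). Vamp5 and Vamp8 stayed under 1 CPM in each library.

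Among the SNAP-25 family, Snap47, a ubiquitous form, was highest per kilobase. It had 126, 90.6 and 109 CPM in 4% oxygen, against 101, 77.7 and 106 CPM in 20% oxygen, and 11.6% of its exon bases overlap Jmjd4 on the other strand. Snap25, the neuronal form, had 56.0, 64.9 and 48.8 CPM in 4% oxygen, against 70.6, 83.6 and 65.6 CPM in 20% oxygen. Each 4% library was below each 20% library, though by a thin margin, and the log2 fold change was -0.37 (SE 0.24, edgeR unadjusted p = 0.144).

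Snap23, its counterpart outside neurons, had 23.1, 20.4 and 14.8 CPM in 4% oxygen, against 28.4, 24.6 and 25.6 CPM in 20% oxygen, a log2 fold change of -0.43 (SE 0.26, edgeR unadjusted p = 0.123). Snap25 and Snap23 were the 2 of the 5 members in this group that separated the levels, both lower at 4% oxygen. That is 40% of a small group, against 3.72% of all genes tested, and neither had an unadjusted p under 0.05. Snap29, which serves several internal membranes, averaged 17.6 ± 1.05 and 18.9 ± 1.09 CPM at 4% and 20% oxygen (SD, n = 3 each). Snap91, the clathrin adaptor AP180, is no SNARE despite its symbol. It averaged 75.1 ± 6.35 and 63.8 ± 20.2 CPM at 4% and 20% oxygen (SD, n = 3 each), with a log2 fold change of 0.24 that was 0.04 without 20% oxygen replicate 1.

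Rab3 GTPases cycle on and off vesicles with each round of release. Rab3a had 33.4, 35.1 and 46.1 CPM in 4% oxygen, against 29.9, 25.1 and 26.8 CPM in 20% oxygen, without overlap, a log2 fold change of 0.49 (SE 0.24, edgeR unadjusted p = 0.0707). Rab3c had 180, 164 and 179 CPM in 4% oxygen, against 152, 146 and 157 CPM in 20% oxygen, also without overlap, a log2 fold change of 0.20 (SE 0.21). Per kilobase Rab3a and Rab3c stood near each other, at 26.3 ± 4.74 and 20.5 ± 1.08 at 4% oxygen and 18.8 ± 1.7 and 17.9 ± 0.634 at 20% oxygen (CPM per kilobase, SD, n = 3 each).

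Rab3b followed the replicate number more than the oxygen level, at 6.28, 2.91 and 2.45 CPM in 4% oxygen, against 6.61, 1.39 and 1.26 CPM in 20% oxygen. Both libraries numbered 1 were the highest of their level. Its log2 fold change of 0.33 was 1.55 without 20% oxygen replicate 1 (edgeR unadjusted p = 0.00723). It turned to -0.22 when 4% oxygen replicate 1 was left out, and to -0.02 and -0.05 when replicates 2 and 3 at 20% oxygen were left out in turn. Rab3d, the form of exocrine granules, averaged 16.9 ± 1.95 and 14.7 ± 3.36 CPM at 4% and 20% oxygen (SD, n = 3 each), with a log2 fold change of 0.20 that was 0.40 without 20% oxygen replicate 1.

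Complexins varied more between libraries than between oxygen levels. Cplx1, the third of all members per kilobase, had 86.3, 151 and 149 CPM in 4% oxygen, against 61.8, 178 and 117 CPM in 20% oxygen. Replicate 1 was the lowest at both levels, the ranges overlapped, and the log2 fold change of 0.12 (SE 0.37) was -0.20 without 20% oxygen replicate 1. Cplx2 had 150, 111 and 183 CPM in 4% oxygen, against 33.1, 130 and 118 CPM in 20% oxygen. Replicate 1 at 20% oxygen alone was far below the rest, and the log2 fold change of 0.66 (SE 0.42) was 0.26 without it. Cplx3, a complexin of ribbon synapses, was at or under 0.233 CPM, and Cplx4 was found as 2 counts in 1 library.

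The 4 syntaxin-binding proteins tested had estimates above 0, none of them past an unadjusted p of 0.05. Stxbp2, or Munc18-2, averaged 27.0 ± 5.16 and 21.5 ± 5.09 CPM at 4% and 20% oxygen, and Stxbp5, or tomosyn, an inhibitor of SNARE assembly, 55 ± 11.2 and 52.4 ± 12.2 CPM (SD, n = 3 each). Without 20% oxygen replicate 1 the log2 fold change of Stxbp2 was 0.53 (0.33 with it) and that of Stxbp5 0.24 (0.07 with it). Stxbp4 averaged 14.6 ± 0.702 and 12.7 ± 2.32 CPM (SD, n = 3 each). Stxbp6 and Syt16 had 0 counts in all 6 libraries, where 3 counts correspond to 0.0187 to 0.0248 CPM per library and cover counting error only. Every deposited count is even, for a reason that was not tested, so this floor may be too low. Stxbp6 and Syt16, with Syt8, Syt10, Syt13, Syt15 and Cplx4, made up the 7 members too low to be tested. Syt13 had at most 22 counts in a library and Syt15 at most 18, and Syt8 was found as 2 counts in 1 library.

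**Figure D3:**
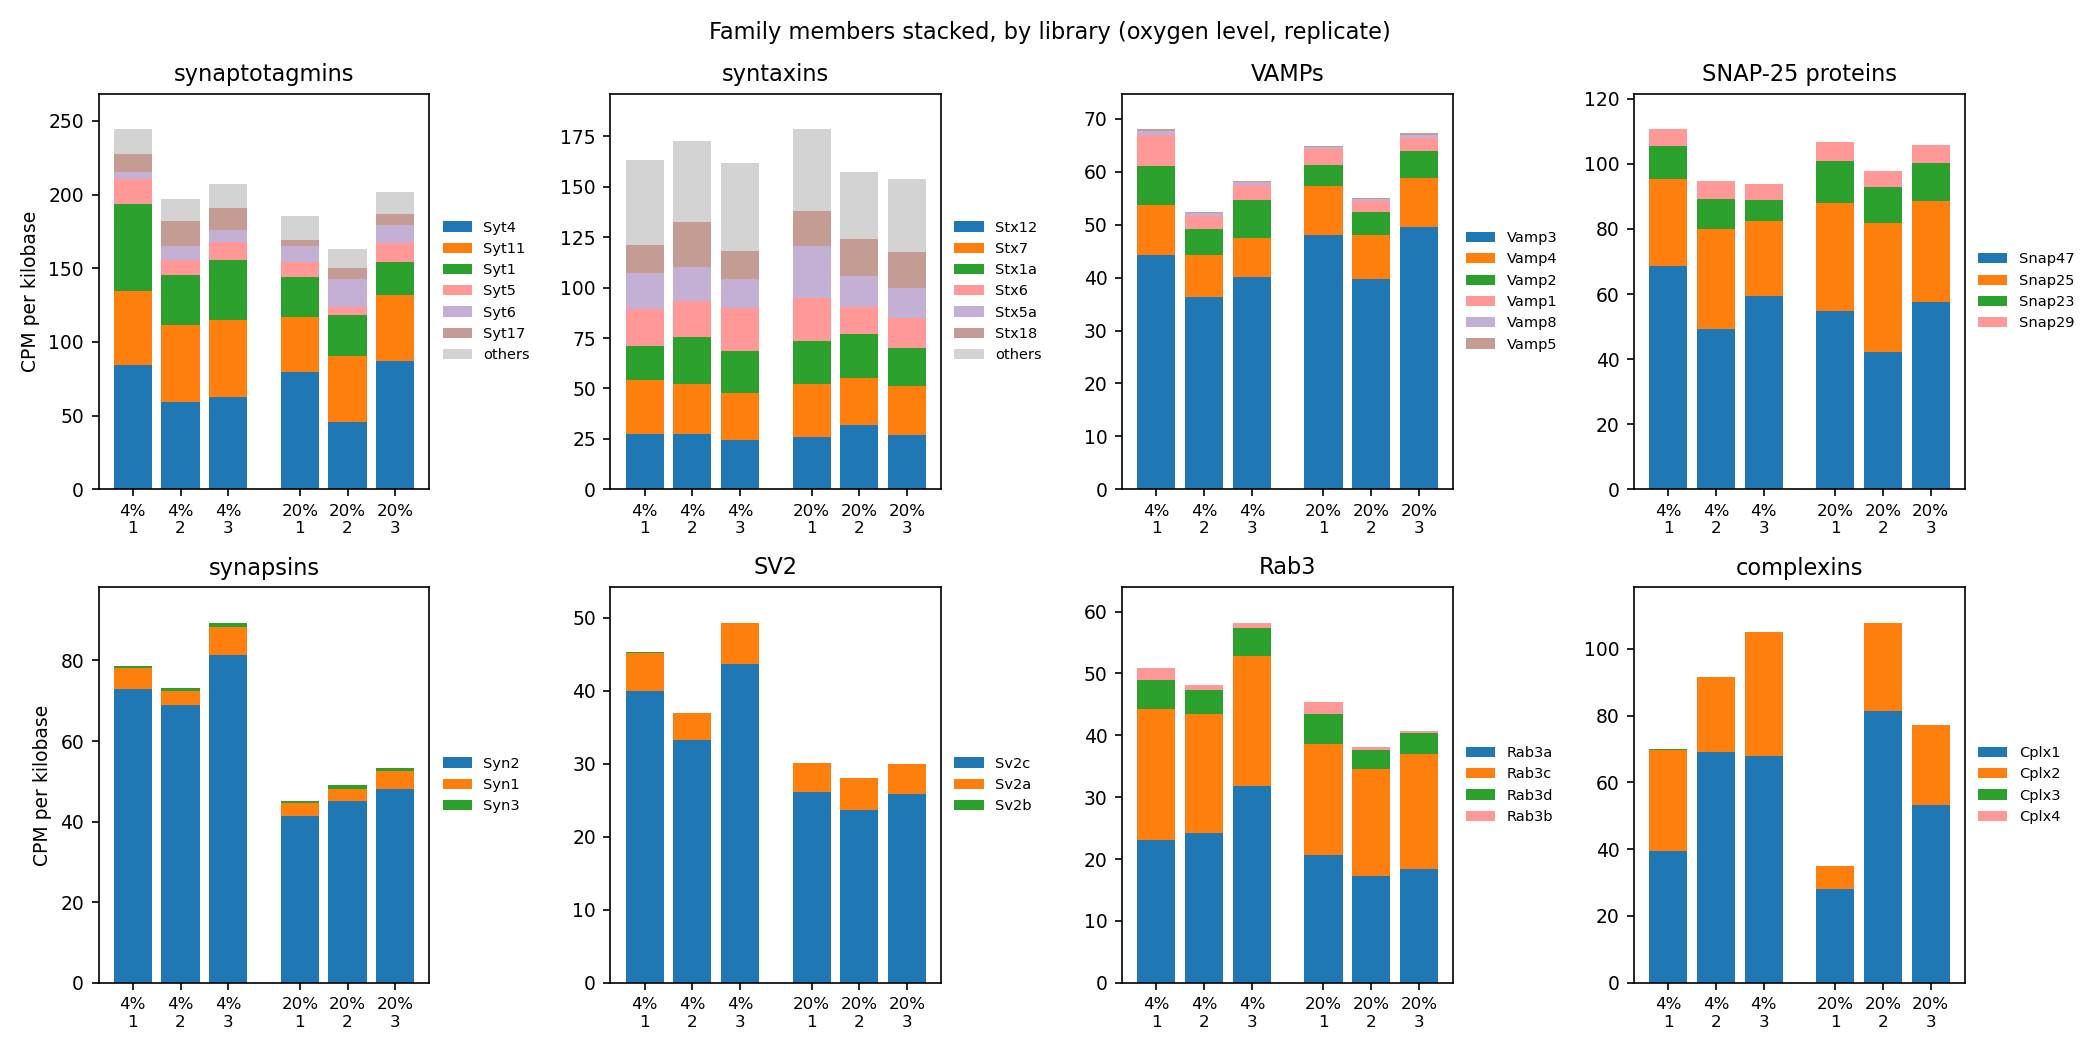
Summed CPM per kilobase of deposited gene length (y axis, from 0) of each family's members, stacked, in each of the 3 libraries at 4% oxygen and the 3 at 20% oxygen. The syntaxin-binding proteins are not drawn. Syn2 fills most of the synapsin bars and Sv2c most of the SV2 bars, and the summed synapsin, SV2 and Rab3 bars are each higher in the 3 libraries at 4% oxygen.

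Summed per kilobase, the levels of 3 of the 9 families separated the oxygen conditions. Synapsins summed to 80.4 ± 8.18 CPM per kilobase at 4% oxygen and 49.1 ± 4.18 at 20% oxygen, SV2 proteins to 43.8 ± 6.28 and 29.4 ± 1.13, and Rab3 GTPases to 52.4 ± 5.17 and 41.4 ± 3.68 (SD, n = 3 each). For these 3 families every 4% library was above every 20% library. The synapsin and SV2 sums were mostly those of Syn2 and Sv2c, whose own levels are given above. The SNARE families did not separate: syntaxins summed to 166 ± 5.78 CPM per kilobase at 4% oxygen and 163 ± 13.3 at 20% oxygen, VAMPs to 59.5 ± 7.9 and 62.5 ± 6.55, and the 4 SNAP-25 proteins to 99.7 ± 9.41 and 103 ± 4.78 (SD, n = 3 each). Synaptotagmins summed to 216 ± 24.8 and 184 ± 19.4 CPM per kilobase at 4% and 20% oxygen, and complexins to 88.8 ± 17.8 and 73.3 ± 36.5. None of the family sums was tested, and how often sums of other genes separate is not given here.

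**Figure D4:**
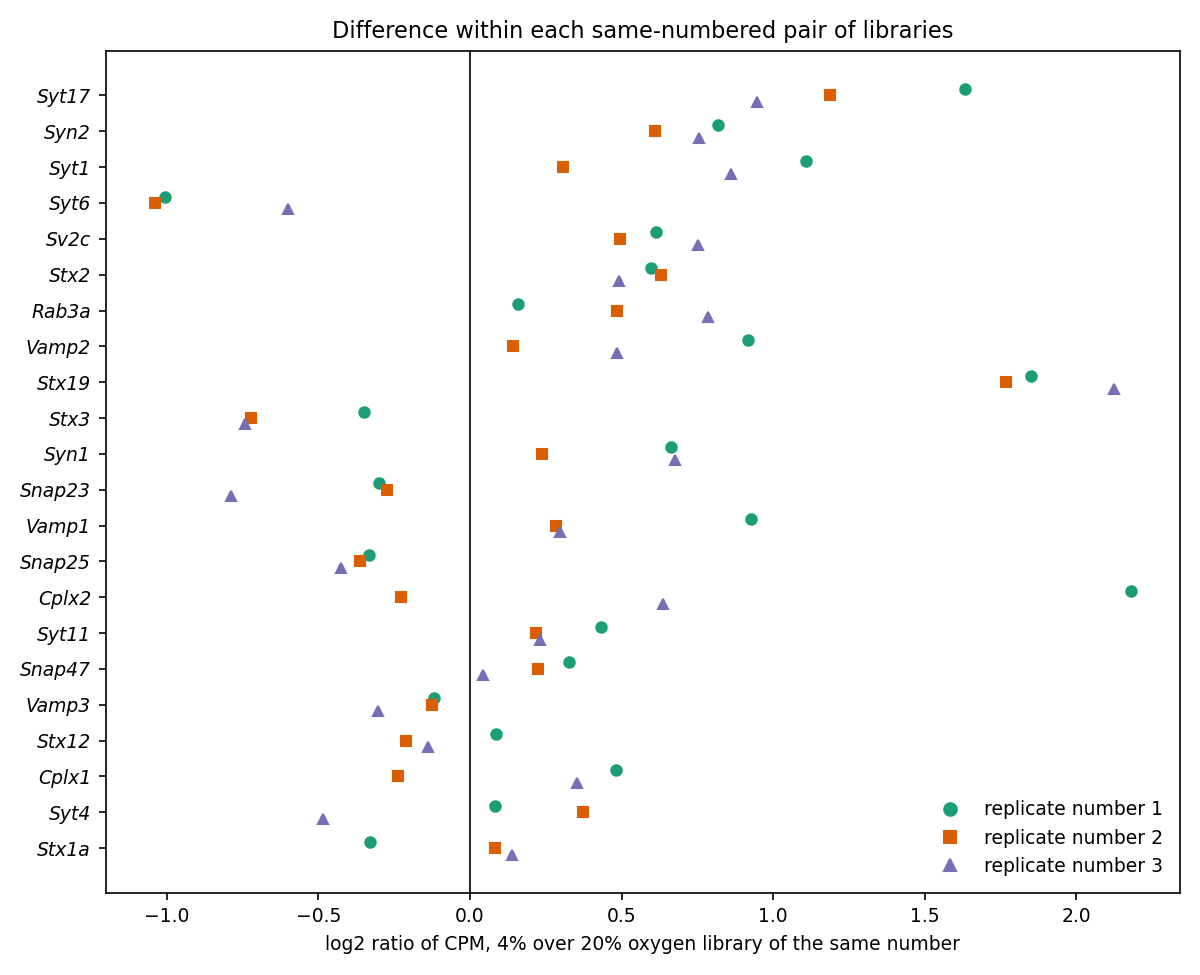
log2 ratio of CPM between the 4% and the 20% oxygen library of the same replicate number (x axis) for 22 of the 23 members named by rule; the 3 marker shapes are the 3 numbers. Snap25, Stx2 and Syn2 have 3 similar ratios, while Cplx2 runs from -0.23 to 2.18.

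Libraries of the same number deviated together, so the difference within each number is given as well. In 3 of 3 pairs 19 of 55 members were higher at 4% oxygen and 6 were lower, where 17.3% and 14.3% of all genes tested were. Stx2 had log2 ratios of 0.60, 0.63 and 0.49 in the pairs numbered 1, 2 and 3, and Syn2 0.82, 0.61 and 0.76. Snap25 had -0.33, -0.36 and -0.43, so that a small difference had the same size in each pair. Vamp2 and Syn1, whose groups overlapped, were higher within each pair, at 0.92, 0.14 and 0.48 for Vamp2 and 0.66, 0.24 and 0.67 for Syn1. Vamp3 was lower within each pair, at -0.12, -0.13 and -0.31. With the number as a block in edgeR, 7 members were higher and 2 lower at an unadjusted p under 0.05 (6.01% and 2.86% of all genes tested), the added ones being Stx19, Syn1 and Stx3, and the smallest adjusted p among members was 0.11, for Syt17.

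Other genes of the release machinery, a list of 85 that covers priming factors, active zone scaffolds, vesicle transporters, endocytic proteins and the exocyst, had 71 members tested. Of these, 0 passed over all genes with edgeR (0% of all genes tested), 4 were higher and 0 lower at an unadjusted p under 0.05 (5.63% and 0%, against 3.01% and 1.42% of all genes tested), and the median log2 fold change was 0.10. Slc18a1, the vesicular monoamine transporter VMAT1, best known from chromaffin cells, had 23.6, 7.84 and 15.5 CPM in 4% oxygen, against 4.58, 1.82 and 3.99 CPM in 20% oxygen. Every library at 4% oxygen was above those at 20%, and the log2 fold change was 2.17 (SE 0.46). Its adjusted p was 0.363 with edgeR, 0.0222 with the replicate block, 0.0221 with no filter on low counts and 0.000625 with DESeq2, so that it passed in 3 other fits. Slc18a2, which encodes VMAT2, the main form of sympathetic neurons, was more abundant, at 94.6, 51.7 and 40.8 CPM in 4% oxygen, against 122, 46.8 and 48.4 CPM in 20% oxygen. Its groups overlapped and its estimate was -0.22 on the log2 scale (SE 0.42), and it is named after its values were seen.

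Unc13a, or Munc13-1, which primes vesicles by opening syntaxin, had 217, 170 and 245 CPM in 4% oxygen, against 126, 117 and 119 CPM in 20% oxygen, without overlap (log2 fold change 0.80, SE 0.23, edgeR unadjusted p = 0.00505). Bsn, the active zone scaffold bassoon, had 21.3, 19.4 and 35.3 CPM in 4% oxygen, against 12.7, 11.3 and 13.1 CPM in 20% oxygen (log2 fold change 1.03, SE 0.29). Ppfia3, a liprin, had a log2 fold change of 0.79 (SE 0.28), Rimbp2, which links calcium channels to the active zone, 0.63 (SE 0.32), and the exocyst subunit Exoc7 0.47 (SE 0.24). Adjusted p-values of these 5 ran from 0.699 to 0.996 with edgeR. Besides Slc18a1, the genes Unc13a, Bsn, Ppfia3 and Exoc7 each separated the oxygen levels. With Ppfia2, another liprin, 6 of the 71 did so in this direction (8.45%, against 6.33% of all genes tested) and 1, Rab3il1, an activator of Rab GTPases, in the other (1.41%, against 3.72%), the last 2 being named after their values were seen.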

How the data were processed

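RNA of 6 libraries was counted per gene. Per the file headers, the authors deposited raw gene counts and RPKM values with mm10 coordinates. TopHat2 2.0.6 is listed with Bowtie and HTSeq in the submitters' processing notes. Strand use and annotation: not given in the sources used here, so overlapping genes may share reads. The labels name both a stranded total RNA kit and an mRNA kit. Every deposited count is an even number (100%), the reason for which was not tested. RPKM values deposited by the authors were used only to check that the gene length enters them.

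Counts were fitted with edgeR 4.0.16 in R 4.3.3: filterByExpr (minimum count 10, minimum total 15), TMM scaling, quasi-likelihood test, two-sided, Benjamini-Hochberg over all genes, threshold 0.05. SE is the log2 fold change over the square root of F. CPM values are TMM scaled, and CPM per kilobase uses the deposited length. The fit was also run on simulated data with known changes, and how many of them it recovered is not given here. Alternatives were a replicate block, DESeq2 1.42.0 and its size factors, no filter, each library left out and, added after seeing the data, counts halved. Deviations of same-numbered libraries from their group means correlated at 0.285, 0.465 and 0.233, so differences within each number are given too. The labels do not say what the numbers mark. The main fit had no block, so its SEs, intervals and p-values take no account of such a pairing. Exon overlaps come from GENCODE M21.

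Members, lists and roles were chosen with earlier results of these data known. Members described in full are the 15 with the smallest p, the 10 highest per kilobase and the highest of each of 11 role groups (23 in all), with the 6 smallest p of the related list. Others were added after their values were seen, and 2 members are not reported here individually.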

Additional observations from a re-analysis of the deposited data

How the results depend on the processing

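No member passed the threshold over all genes in any alternative fit. Over the whole table edgeR with the replicate block called 11 genes higher, DESeq2 53 higher and 6 lower, and edgeR with no filter on low counts 25 higher and 2 lower. Leaving out 1 library gave 0 higher, and 0 to 1 lower. Of the related genes 1, Slc18a1, was higher with the block, with DESeq2 and with no filter (log2 fold changes 2.14, 2.15 and 2.17). At an unadjusted p under 0.05, 2 members were lower with the block (2.86% of all genes tested) and 2 with DESeq2 (2.14%). With the block 7 related genes were higher (9.86% of those tested, against 6.01% of all genes tested). With a library left out these counts were 3 to 7 members higher and 0 to 1 lower, and 3 to 10 related genes higher and 0 to 1 lower. Over all genes tested in those fits 1.49% to 5.79% were higher, and 65 to 460 of 15222 to 15386 genes were lower. Members whose groups did not overlap were then 9 to 16 higher (16.1% to 28.6% of those tested) and 4 to 7 lower (7.02% to 12.5%). Over all genes tested 7.97% to 13.9% were higher and 5.08% to 11% lower, as 2 libraries separate from 3 more easily. The members' median log2 fold change was 0.10 to 0.27 in these fits. With a library left out the sign turned for 17 of the 55 members tested, among those described in full for Cplx1 (-0.20 to 0.53), Stx12 (-0.15 to 0.00073), Stx1a (-0.13 to 0.067) and Syt4 (-0.28 to 0.13). The block changed no other call of a gene named here. Stx19, Sv2b and Cplx3, with few counts, dropped out of the fit with counts halved, so what limits their precision was not tested.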
